A study of Mus musculus with 13 samples.

Results

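The genes described are Sox10, Tlx2, Erbb3, Ngfr, Ptprz1, Bcan, S100b and Fabp7, 8 mouse genes best known from glial cells and the neural crest. They are 8 of the 20738 genes that the platform annotation names on the array, and were chosen with results of these same arrays in view. Every feature the annotation assigns to them was used, 20 of the 62976 features. Ngfr has 10 features, Ptprz1 has 3 and Bcan has 2, and the other genes have 1 each. A gene was represented by its brightest feature, and all 8 genes and 19 of the 20 features exceeded the median signal of their array in 2 or more of the 13 samples. Since the values on all 13 arrays entered the choice, differences of these 8 genes are given as descriptions with the standard error (SE) of the fit and no p-value.

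Neural crest cells leave the neural tube of the embryo and give rise to Schwann cells, enteric and peripheral neurons, melanocytes and other lineages. Sox10 is a transcription factor of crest cells and of the glia and melanocytes they form, and it drives Erbb3, a neuregulin receptor on which Schwann cell precursors depend. Ngfr is the p75 neurotrophin receptor, Ptprz1 a receptor phosphatase of radial glia and oligodendrocyte precursors, Bcan (brevican) a proteoglycan of the brain matrix, and S100b and Fabp7 are cytoplasmic proteins used as glial markers. Tlx2 is a homeobox factor of enteric and other crest-derived neurons. The testis shares parts of this set. Sox8, Sox9 and Sox10 form the SoxE family, Sox9 directs Sertoli cell formation, and Dhh is secreted by both Sertoli and Schwann cells.

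The study asked how induced embryonic Sertoli cells (ieSC) compare with their starting fibroblasts and with Sertoli cells of the mouse testis. Induced cells carried 5 transgenes (Nr5a1, Wt1, Dmrt1, Gata4 and Sox9), which code for factors that act in gonad formation, and were kept for 6 months in 2% serum with doxycycline, which is a common inducer of transgenes. They came from tail tip fibroblasts (TTF-ieSC, 2 arrays) or from embryonic fibroblasts (MEF-ieSC, 1 array). Another array of MEF-ieSC was not analysed here. The native samples, wild type and without a transgene, were uncultured male gonads at 14.5 days post coitum (dpc), immature Sertoli cells from testes at 19 dpc after 3 days in 10% serum, and mature Sertoli cells from testes at 8 weeks after 7 days in 10% serum, with 2 arrays each. The starting cells were wild-type tail tip fibroblasts carrying tdTomato (TTF, 2 arrays) and wild-type embryonic fibroblasts carrying an empty vector (MEF, 2 arrays), both grown for 3 passages in 10% serum. None of the 8 genes is one of the transgenes. Factors, serum, doxycycline and time in culture differ together between induced cells and fibroblasts and cannot be told apart. Between induced cells and native samples they differ together with the tissue of origin and cannot be told apart either. TTF and MEF differ in both tissue and construct. The labels do not say whether an induced culture is 1 clone or whether 2 arrays of a group came from separate animals or cultures, so standard errors and p-values cover no more than the variation among these arrays, and that variation may be technical.

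Values are log2 signals with the same distribution on every array, a median of 7.49 and a 75th percentile of 10.5. No detection flags or background values were used here, so a value near or under the median is dim by rank, and a difference from such a value depends on an unknown background. Replicate arrays of a group differed by 0.167 to 0.310 (root mean square of log2 differences over the genes tested), and by no more than 0.65 for any of the 8 genes. The labelled cell types were checked on markers. A list of 15 embryonic Sertoli cell genes had mean levels of 11.66 to 11.70 in TTF-ieSC, 11.34 in MEF-ieSC, 14.30 to 14.31 in gonad, 13.16 to 13.18 in immature Sertoli cells, 13 to 13.03 in mature Sertoli cells, 8.05 to 8.07 in TTF and 9.22 to 9.23 in MEF. Of these 15 genes, 11 rose and 1 fell in TTF-ieSC against TTF, and 8 rose and 3 fell in MEF-ieSC against MEF. Against immature Sertoli cells, 5 were higher and 10 lower in TTF-ieSC (median -1.68). Over all genes tested, 39.5% rose and 35.2% fell in TTF-ieSC against TTF, and 34.3% and 33.6% in MEF-ieSC against MEF. In TTF-ieSC against immature Sertoli cells 37.8% were higher and 39% lower. The shares of the 2 inductions apply to every list count below. The Sertoli list includes all 5 transgenes, so its levels and counts in induced cells are no independent check of cell type. Gata4, a transgene, averaged 6.92 in TTF-ieSC and 6.92 in MEF-ieSC, under the array median, and fell in MEF-ieSC against MEF (-2.51 ± 0.18). Dmrt1, another transgene, and Inha (inhibin alpha) passed the test in neither induction. A list of 13 fibroblast genes had mean levels of 9.78 to 9.79 in TTF-ieSC and 9.61 in MEF-ieSC, against 15.56 to 15.60 in TTF and 15.35 to 15.37 in MEF. The native samples also read high on it, with 13.36 to 13.39 in gonad, 13.32 to 13.33 in immature and 13.78 to 13.83 in mature Sertoli cells, and all 13 genes lay above the array median on each of these arrays. The part of fibroblasts in the native samples was not tested. These are bulk RNA samples, in which fewer cells of a type and less RNA per cell cannot be told apart.

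**Figure D1:**
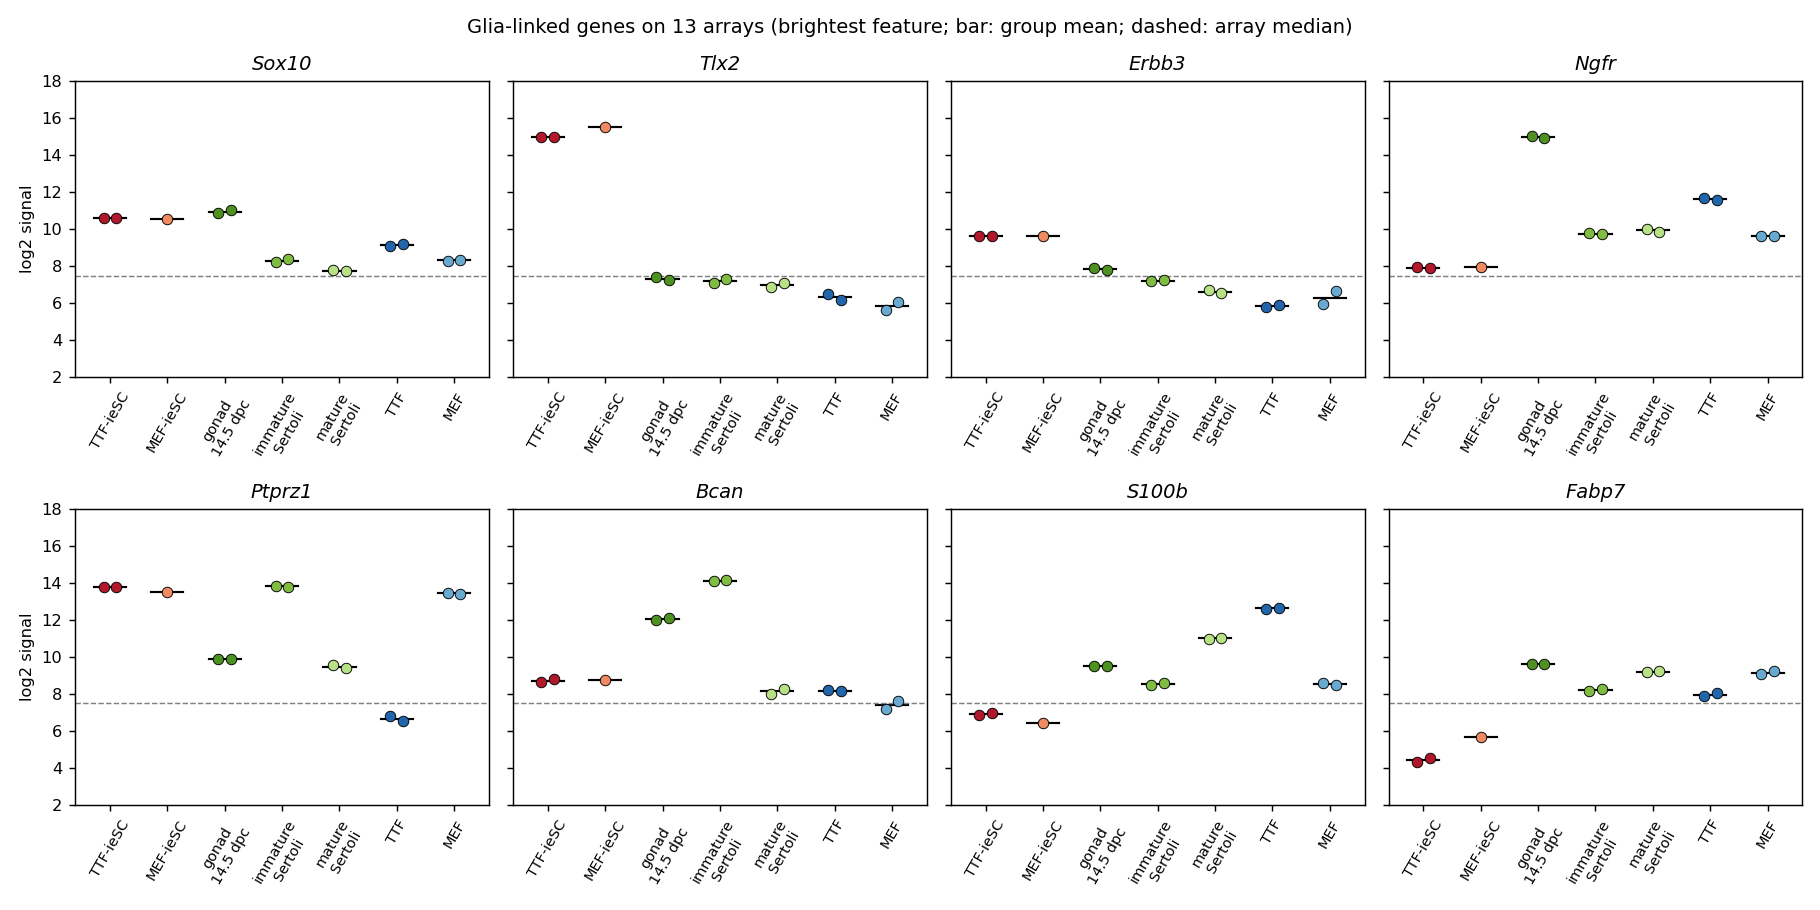
Log2 signal of the brightest feature of each of the 8 genes on each of the 13 arrays, by group, with the array median of 7.49 as a line; each point is 1 array, and a bar is the group mean. Tlx2 and Erbb3 are highest in the induced cells, Fabp7, Ngfr and S100b are lowest there, and Bcan is highest in immature Sertoli cells.

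On their brightest features, Tlx2, Erbb3, Sox10 and Bcan were higher in both kinds of induced cells than in their fibroblasts. Fabp7, Ngfr and S100b were lower in both. Ptprz1 was higher in TTF-ieSC than in TTF by 7.12 on the log2 scale and lay 0.08 apart between MEF-ieSC and MEF. The genes named for glia therefore moved both ways, and the 2 features of Bcan moved in opposite directions.

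Sox10 showed a level in the induced cells close to that of the embryonic gonad. Its log2 signal was 10.62 and 10.62 in TTF-ieSC, 10.56 in MEF-ieSC, 10.88 and 11.01 in gonad, 8.21 and 8.37 in immature Sertoli cells, 7.78 and 7.71 in mature Sertoli cells, 9.06 and 9.20 in TTF, and 8.28 and 8.32 in MEF. Gonad and induced cells were the 2 highest sets of arrays, the mature Sertoli cells were the lowest, and the arrays of immature Sertoli cells and MEF overlapped. The difference was 1.49 ± 0.08 for TTF-ieSC minus TTF and 2.26 ± 0.09 for MEF-ieSC minus MEF (SE; n = 2 arrays a group, 1 for MEF-ieSC). TTF-ieSC minus gonad was -0.32 ± 0.08, and TTF-ieSC minus immature Sertoli cells was 2.33 ± 0.08.

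The other SoxE genes did not share one pattern. Sox8, which acts with Sox9 in the testis, rose by 1.28 ± 0.09 in TTF-ieSC against TTF (limma, adjusted p = 1.66e-06) and by 1.2 ± 0.11 in MEF-ieSC against MEF (adjusted p = 1.43e-05). Sox9, one of the transgenes, read 9.79 and 9.79 in TTF-ieSC against 11.33 and 11.28 in TTF, and 9.12 in MEF-ieSC against 10.87 and 10.89 in MEF. It fell in both (log2 difference -1.52 ± 0.07, adjusted p = 1.04e-07, and -1.76 ± 0.09, adjusted p = 2.43e-07, limma). Whether the features of Sox9 can read the transgene is not given in the sources used here. Sox6, a SoxD factor of cartilage and glia, rose by 4.28 ± 0.14 in TTF-ieSC against TTF and by 3.74 ± 0.18 in MEF-ieSC against MEF. Sox11, a SoxC factor of immature neurons and many embryonic tissues, fell (-3.57 ± 0.22 and -6.35 ± 0.27). Of the 9 tested genes of the Sox list, 4 rose and 4 fell in TTF-ieSC against TTF, and 4 rose and 3 fell in MEF-ieSC against MEF.

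Tlx2 separated the induced cells from every other group. It had 14.97 and 14.98 in TTF-ieSC and 15.54 in MEF-ieSC, brighter than 95.4% to 96.7% of the features on those arrays. It had 7.41 and 7.22 in gonad, 7.10 and 7.28 in immature Sertoli cells, 6.90 and 7.08 in mature Sertoli cells, 6.47 and 6.19 in TTF, and 5.61 and 6.03 in MEF. All 10 arrays of native cells and fibroblasts lay under the array median, so Tlx2 passed the filter only through the 3 induced arrays. TTF-ieSC exceeded TTF by 8.64 ± 0.15, and MEF-ieSC exceeded MEF by 9.72 ± 0.19. TTF-ieSC minus MEF-ieSC was -0.56 ± 0.19, with 1 array behind MEF-ieSC. Taken as MEF-ieSC minus TTF-ieSC, the difference was 0.56 for Tlx2 and a median of 0.07 for the 121 features around it on the array grid.

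Its relatives and cofactors moved less. Tlx3, which specifies sensory and spinal cord neurons, read 7.93 and 7.97 in TTF-ieSC against 4.87 and 5.33 in TTF, and 8.35 in MEF-ieSC against 4.81 and 4.99 in MEF. It rose in both comparisons (2.85 ± 0.52, adjusted p = 9.57e-04, and 3.45 ± 0.63, adjusted p = 0.00124, limma), although the fibroblast values were dim. Tlx1, a factor of spleen formation, stayed at 6.13 and 6.71 in TTF-ieSC and 6.31 in MEF-ieSC, under the array median, and did not pass the test (adjusted p = 0.0803 and 0.0822). Of the PBX cofactors, Pbx4 rose by 2.48 ± 0.07 in TTF-ieSC and by 1.79 ± 0.09 in MEF-ieSC, while Pbx3 rose by 0.37 ± 0.08 in TTF-ieSC and fell in MEF-ieSC (-0.40 ± 0.09). The TLX and PBX list had 4 genes higher and 1 lower of 7 tested in TTF-ieSC against TTF, and 2 higher and 3 lower in MEF-ieSC against MEF.

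Erbb3, whose kinase is nearly inactive and which signals through ERBB2 after binding neuregulin, was highest in the induced cells. It had 9.64 and 9.61 in TTF-ieSC, 9.64 in MEF-ieSC, 7.91 and 7.81 in gonad, 7.19 and 7.25 in immature Sertoli cells, 6.68 and 6.53 in mature Sertoli cells, 5.77 and 5.89 in TTF, and 5.98 and 6.63 in MEF. The 3 induced arrays lay side by side, and no other array came above 7.91. Only induced cells and gonad were above the array median, so the filter was passed through those groups. The differences were 3.80 ± 0.18 for TTF-ieSC minus TTF and 3.33 ± 0.22 for MEF-ieSC minus MEF. The 2 MEF arrays differed by 0.65, and mature Sertoli cells, MEF and TTF were not separated by more than the spread of their arrays.

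Among the partners of Erbb3, receptors and ligands went separate ways. Erbb2, the coreceptor, rose by 0.99 ± 0.07 in TTF-ieSC against TTF (limma, adjusted p = 2.01e-06) and by 0.98 ± 0.09 in MEF-ieSC against MEF (adjusted p = 1.18e-05), and its 10 features gave 0.86 to 1.09 and 0.79 to 1.09. Erbb4, the other neuregulin receptor, read 10.46 and 10.38 in TTF-ieSC against 6.08 and 6.87 in TTF, and 10.39 in MEF-ieSC against 7.16 and 7.36 in MEF. It rose in both (3.95 ± 0.21, adjusted p = 2.70e-07, and 3.13 ± 0.26, adjusted p = 7.51e-06, limma), while its dimmer feature gave 0.89 and 0.13. Nrg1, the neuregulin that axons present to Schwann cells, had 6.70 and 6.23 in TTF-ieSC against 11.28 and 11.29 in TTF, and 4.63 in MEF-ieSC against 13.06 and 12.88 in MEF. It fell by the widest margin of the ERBB list in both (-4.82 ± 0.14, adjusted p = 4.30e-09, and -8.34 ± 0.17, adjusted p = 1.09e-09, limma). Gonad, immature and mature Sertoli cells kept Nrg1 between 11.35 and 12.66, so the induced cells stood apart from native cells too. Nrg2, a related ligand, rose by 3.74 ± 0.09 and 3.84 ± 0.11, and Egfr fell (-2.89 ± 0.10 and -4.55 ± 0.12). Of 13 tested genes of the ERBB list, 5 rose and 6 fell in TTF-ieSC against TTF, and 7 rose and 4 fell in MEF-ieSC against MEF.

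Ngfr was brightest in the gonad and low in both kinds of induced cells. The brightest of its 10 features had 7.93 and 7.89 in TTF-ieSC, 7.93 in MEF-ieSC, 15.02 and 14.92 in gonad, 9.80 and 9.71 in immature Sertoli cells, 10.01 and 9.87 in mature Sertoli cells, 11.65 and 11.56 in TTF, and 9.62 and 9.63 in MEF. Gonad stood above every other group, by 3.27 between its lower array and the higher one of TTF, and the induced arrays lay just above the array median. All 10 features gave the same direction, from -3.90 to -3.26 for TTF-ieSC minus TTF, from -2.20 to -1.69 for MEF-ieSC minus MEF, and from -5.25 to -5.04 for immature Sertoli cells minus gonad. Features of 1 gene are not replicates of the samples. Mature and immature Sertoli cells were not separated (-0.02 to 0.18 over the features). The gonad sample is a whole organ, which holds cell types other than Sertoli cells.

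The ligands and coreceptors around Ngfr changed in both directions. Bdnf, a neurotrophin, read 7.06 and 7.04 in TTF-ieSC against 13.13 and 12.93 in TTF, and 7.13 in MEF-ieSC against 11.68 and 11.62 in MEF (-5.97 ± 0.09, adjusted p = 8.41e-11, and -4.53 ± 0.11, adjusted p = 2.68e-09, limma). Sort1, the sortilin that binds proneurotrophins together with NGFR, rose by 4.17 ± 0.06 in TTF-ieSC and by 2.11 ± 0.07 in MEF-ieSC, to 13.05 and 12.90. Rtn4r, the Nogo receptor for which NGFR is a coreceptor, fell in both (-4.93 ± 0.51 and -2.60 ± 0.62). Its induced values were dim, under the array median, with 4.06 and 6.07 in TTF-ieSC and 5.41 in MEF-ieSC. Sorcs2, a sortilin relative, fell as well (-2.10 ± 0.09 and -5.57 ± 0.11), while its dimmer feature gave -0.3 and -1.74. Ntrk3 did not pass the test in TTF-ieSC (0.09 ± 0.09) and fell in MEF-ieSC (-2.08 ± 0.11). Its 4 features ranged from 0.09 to 0.96 and from -2.36 to -1.21. The 12 features of Ntrk2 ranged from -0.89 to 1.05 and from -1.57 to 0.89. The neurotrophin list had 5 higher and 4 lower of 11 tested genes in TTF-ieSC against TTF, and 3 higher and 7 lower in MEF-ieSC against MEF.

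Ptprz1 was bright wherever cells were MEF, induced or immature Sertoli cells, and dim in TTF. Its brightest feature had 13.79 and 13.76 in TTF-ieSC, 13.52 in MEF-ieSC, 9.91 and 9.86 in gonad, 13.85 and 13.76 in immature Sertoli cells, 9.57 and 9.37 in mature Sertoli cells, 6.78 and 6.54 in TTF, and 13.47 and 13.40 in MEF. TTF-ieSC overlapped immature Sertoli cells, and MEF-ieSC lay beside MEF. The difference was 7.12 ± 0.09 for TTF-ieSC minus TTF and 0.08 ± 0.11 for MEF-ieSC minus MEF, and the 2 inductions differed by 7.03 ± 0.15. TTF minus MEF was -6.77 ± 0.09, while TTF-ieSC minus MEF-ieSC was 0.26 ± 0.11. Both TTF arrays lay under the array median, so the size of any difference that involves TTF depends on an unknown background. Another feature ran in parallel, with 6.91 ± 0.09 and 0.13 ± 0.11 for the 2 inductions. The third, annotated to another transcript, lay under the array median on all 13 arrays and did not pass the filter.

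**Figure D2:**
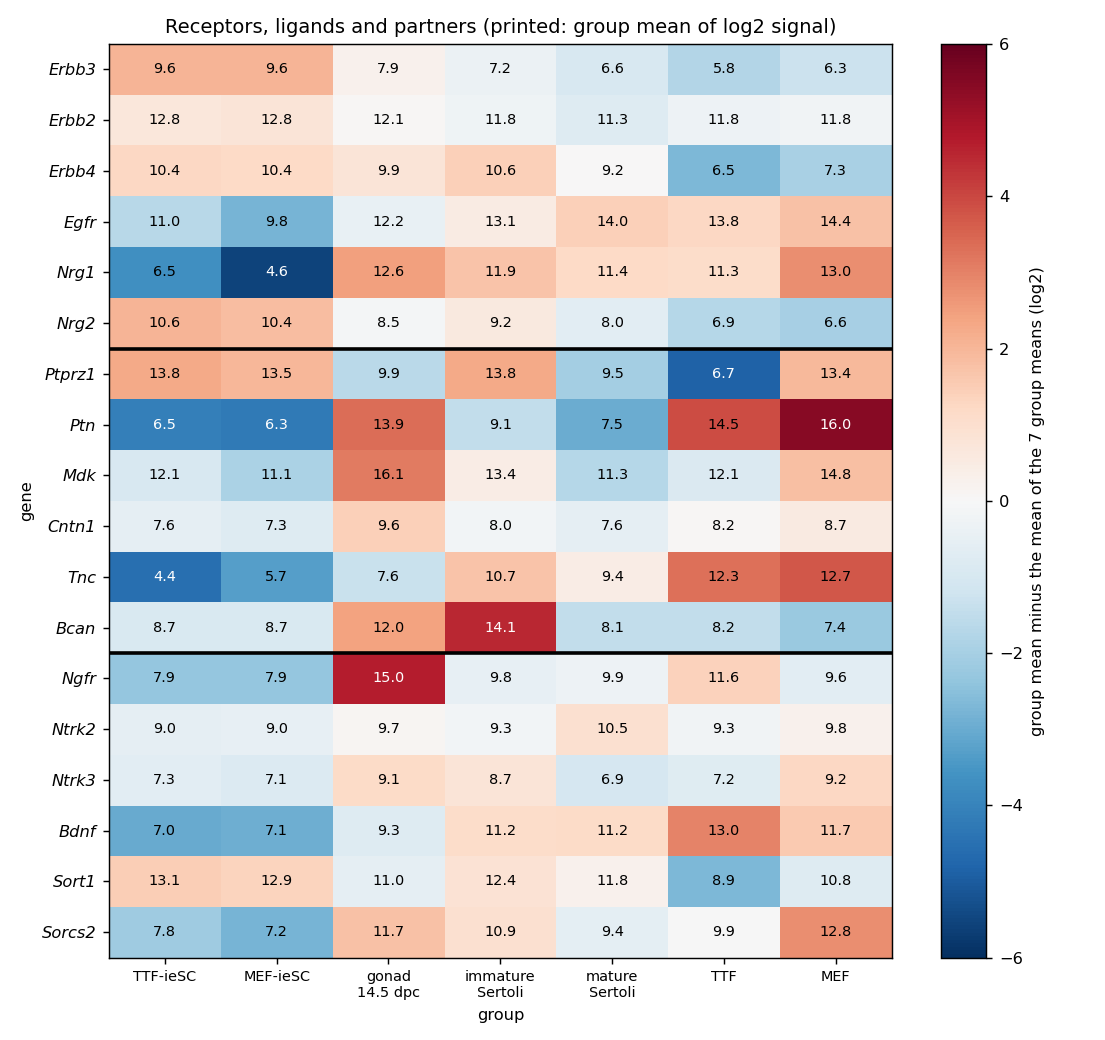
Group mean of log2 signal, printed in each cell, for Erbb3, Ptprz1, Bcan, Ngfr and their ligands, coreceptors and binding partners in the 7 groups; the colour is the gene's own deviation from its mean over the groups. In both induced groups Nrg1, Ptn, Tnc and Bdnf are low, and Erbb3, Nrg2 and Sort1 are high.

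A secreted ligand of Ptprz1 lay under the array median in the induced cells and far above it in the fibroblasts. Ptn (pleiotrophin), which inactivates the phosphatase on binding, had 6.55 and 6.39 in TTF-ieSC against 14.49 and 14.47 in TTF, and 6.33 in MEF-ieSC against 16.10 and 15.93 in MEF. It fell in TTF-ieSC (-8.01 ± 0.10, limma, adjusted p = 3.43e-11) and in MEF-ieSC (-9.69 ± 0.12, adjusted p = 1.34e-10). The native samples had 14.02 and 13.80 in gonad, 9.16 and 9.02 in immature Sertoli cells, and 7.57 and 7.53 in mature Sertoli cells. Mdk (midkine), the related ligand, did not pass the test in TTF-ieSC (-0.09 ± 0.07, adjusted p = 0.300) and fell in MEF-ieSC (-3.68 ± 0.09). Tnc (tenascin C), a matrix ligand, fell by far (-7.87 ± 0.14 and -7.00 ± 0.17), and Cntn1 (contactin), a neuronal partner, by less (-0.62 ± 0.07 and -1.34 ± 0.08).

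Bcan was brightest in the immature Sertoli cell cultures, followed by gonad, and both stood well above the other groups. Its brightest feature had 8.64 and 8.80 in TTF-ieSC, 8.72 in MEF-ieSC, 11.99 and 12.10 in gonad, 14.07 and 14.16 in immature Sertoli cells, 8.02 and 8.24 in mature Sertoli cells, 8.19 and 8.15 in TTF, and 7.18 and 7.63 in MEF. Immature Sertoli cells exceeded gonad by 2.07 ± 0.14 and MEF by 6.71 ± 0.14, and mature minus immature Sertoli cells was -5.99 ± 0.14. TTF-ieSC minus immature Sertoli cells was -5.40 ± 0.14, and TTF-ieSC minus gonad was -3.33 ± 0.14. The 2 features gave this same order of native stages, with immature Sertoli cells minus gonad at 0.51 ± 0.17 on the other one.

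The features of Bcan, annotated to 2 different transcripts, disagreed on the induction. The brighter gave 0.55 ± 0.14 for TTF-ieSC minus TTF and 1.32 ± 0.17 for MEF-ieSC minus MEF. The other gave -1.10 ± 0.17 and -1.71 ± 0.20, from values of 6.28 and 6.84 in TTF-ieSC against 7.58 and 7.75 in TTF, and 5.17 in MEF-ieSC against 6.94 and 6.82 in MEF. Those values lie near or under the array median. No direction of Bcan in the inductions can therefore be given for the gene as a whole.

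**Figure D3:**
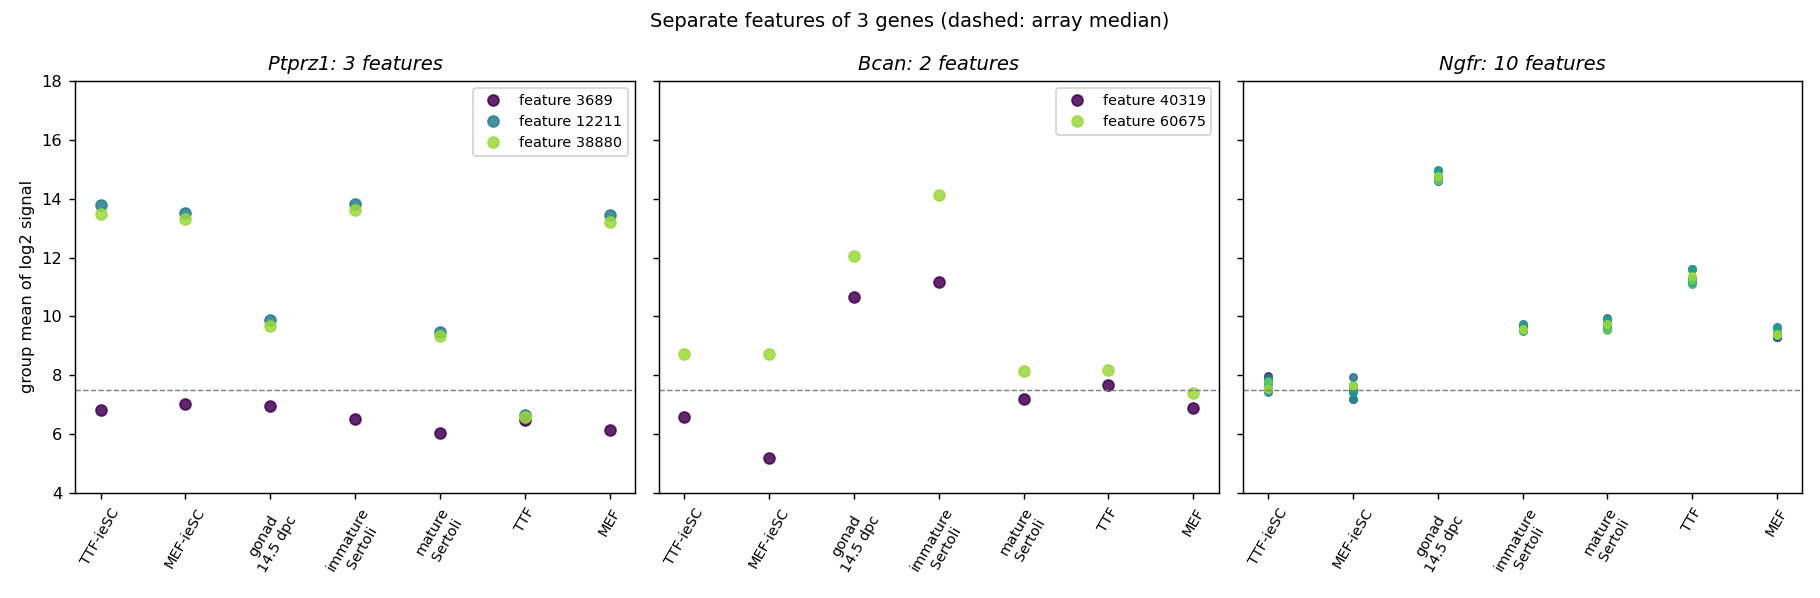
Group mean of log2 signal of every feature of Ptprz1 (3), Bcan (2) and Ngfr (10) in the 7 groups; each point is 1 feature, and the dashed line is the array median. The Ngfr features run together, 1 Ptprz1 feature stays under the array median throughout, and the Bcan features share the peak in immature Sertoli cells.

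Of the matrix genes around Bcan and Ptprz1, more were lower than higher in the induced cells. Of 15 tested genes of that list, 4 rose and 8 fell in TTF-ieSC against TTF, and 3 rose and 9 fell in MEF-ieSC against MEF, with medians of -0.26 and -1.02 beside 0.06 and 0.01 over all genes tested. Over all genes 35.2% fell in the first comparison and 33.6% in the second. Acan (aggrecan), a lectican of cartilage related to brevican, rose by 4.40 ± 0.06 in TTF-ieSC and by 2.41 ± 0.08 in MEF-ieSC. Vcan (versican), the lectican of mesenchyme, fell on its brightest feature (-1.26 ± 0.08 and -1.02 ± 0.09). Its 3 features ran from -1.26 to -0.73 in TTF-ieSC and from -1.02 to 0.36 in MEF-ieSC. Adamts5, a protease that cuts lecticans, fell (-7.17 ± 0.27 and -4.76 ± 0.32). Acan and Vcan were picked from the list after their values were seen.

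S100b, a calcium-binding protein of Schwann cells and astrocytes that cartilage, fat and other tissues also make, was lowest in the induced cells. It had 6.84 and 6.98 in TTF-ieSC, 6.41 in MEF-ieSC, 9.48 and 9.51 in gonad, 8.49 and 8.61 in immature Sertoli cells, 10.99 and 11 in mature Sertoli cells, 12.60 and 12.63 in TTF, and 8.57 and 8.48 in MEF. The 3 induced arrays lay under the array median, TTF were the brightest, and immature Sertoli cells overlapped MEF. TTF-ieSC minus TTF was -5.71 ± 0.07, and MEF-ieSC minus MEF was -2.12 ± 0.08. Mature exceeded immature Sertoli cells by 2.44 ± 0.07. In its family, S100a4, a marker of fibroblasts, fell (-5.49 ± 0.06 in TTF-ieSC and -2.02 ± 0.08 in MEF-ieSC), whereas S100a1, best known from muscle, rose by 2.22 ± 0.09 and 5.16 ± 0.11. The S100 list had 3 higher and 10 lower of 15 tested genes in TTF-ieSC against TTF, and 5 higher and 8 lower in MEF-ieSC against MEF. Over all genes tested, 35.2% and 33.6% were lower in these comparisons.

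Fabp7, the brain lipid-binding protein of radial glia and Schwann cell precursors, was lowest in the induced cells. It had 4.33 and 4.52 in TTF-ieSC, 5.64 in MEF-ieSC, 9.59 and 9.63 in gonad, 8.16 and 8.27 in immature Sertoli cells, 9.17 and 9.24 in mature Sertoli cells, 7.89 and 8.03 in TTF, and 9.08 and 9.22 in MEF. The induced arrays exceeded only 2.9% to 15.8% of the features, and all 10 others were above the array median. The difference was -3.54 ± 0.09 for TTF-ieSC minus TTF and -3.51 ± 0.11 for MEF-ieSC minus MEF. TTF-ieSC minus MEF-ieSC was -1.22 ± 0.11 at values this dim, and the 121 features around it on the array grid differed by a median of 0.00. Of the other fatty acid binding proteins, Fabp4 of adipocytes fell (-5.44 ± 0.09 and -3.19 ± 0.11), and Fabp5 rose by 0.40 ± 0.07 in TTF-ieSC and fell in MEF-ieSC (-1.57 ± 0.08). Pmp2, the Schwann cell member of the family, did not pass the filter. Of 5 tested genes, 1 rose and 3 fell in TTF-ieSC against TTF, and 0 rose and 3 fell in MEF-ieSC against MEF.

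The 3 genes lower in both kinds of induced cells, S100b, Ngfr and Fabp7, have a RefSeq promoter window that begins at the gene's outermost start, and the 250 bases before that start are shown (GRCm38.p6, gene strand). S100b lies at chr10:76253586-76253835 on the plus strand, Ngfr at chr11:95587699-95587948 on the minus strand and Fabp7 at chr10:57784673-57784922 on the plus strand. Capitals mark matches on either strand to the CCAAT box (CCAAT) or the GC box (GGGCGG).
S100b: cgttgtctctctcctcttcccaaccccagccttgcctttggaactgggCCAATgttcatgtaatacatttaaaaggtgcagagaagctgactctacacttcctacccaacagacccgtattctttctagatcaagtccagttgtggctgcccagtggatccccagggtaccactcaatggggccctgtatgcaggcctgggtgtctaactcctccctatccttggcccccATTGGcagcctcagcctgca
Ngfr: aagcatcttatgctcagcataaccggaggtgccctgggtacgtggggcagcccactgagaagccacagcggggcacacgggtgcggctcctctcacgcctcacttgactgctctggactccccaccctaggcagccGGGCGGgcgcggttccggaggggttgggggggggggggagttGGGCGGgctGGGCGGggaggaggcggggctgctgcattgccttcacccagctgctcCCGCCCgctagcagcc
Fabp7: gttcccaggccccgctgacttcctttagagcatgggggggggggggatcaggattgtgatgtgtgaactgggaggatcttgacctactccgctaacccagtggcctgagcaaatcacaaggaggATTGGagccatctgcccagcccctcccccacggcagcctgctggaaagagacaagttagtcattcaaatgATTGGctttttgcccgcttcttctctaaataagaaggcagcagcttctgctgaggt
S100b and Fabp7 each held 2 CCAAT boxes and no GC box, with GC contents of 53.6% and 54.8%, and Ngfr held 4 GC boxes and no CCAAT box at 70.4%. Over the 32851 promoter windows of the same length, 33.8% held the CCAAT box and 32.7% the GC box. Motifs of the SOX, GATA, NR5A1 and WT1 factors were searched on both strands as well, and none of their letters were in the 3 windows. No motif of Dmrt1 was searched. The SOX motif ACAAAG was in 16.5% of all windows and its variant AACAAT was in 9.42% of them. The GATA motif AGATAA was present in 9.99%, the NR5A1 motif AAGGTCA was present in 4.08%, and the WT1 motif GCGGGGGCG was present in 2.57%. Windows were matched for 5 of the 8 genes, and Sox10, Erbb3 and Tlx2 are named only. Of the others, the Ptprz1 window held 1 WT1 motif, which overlapped one of its 2 GC boxes, and the Bcan window held 1 GC box and 1 CCAAT box.

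**Figure D4:**
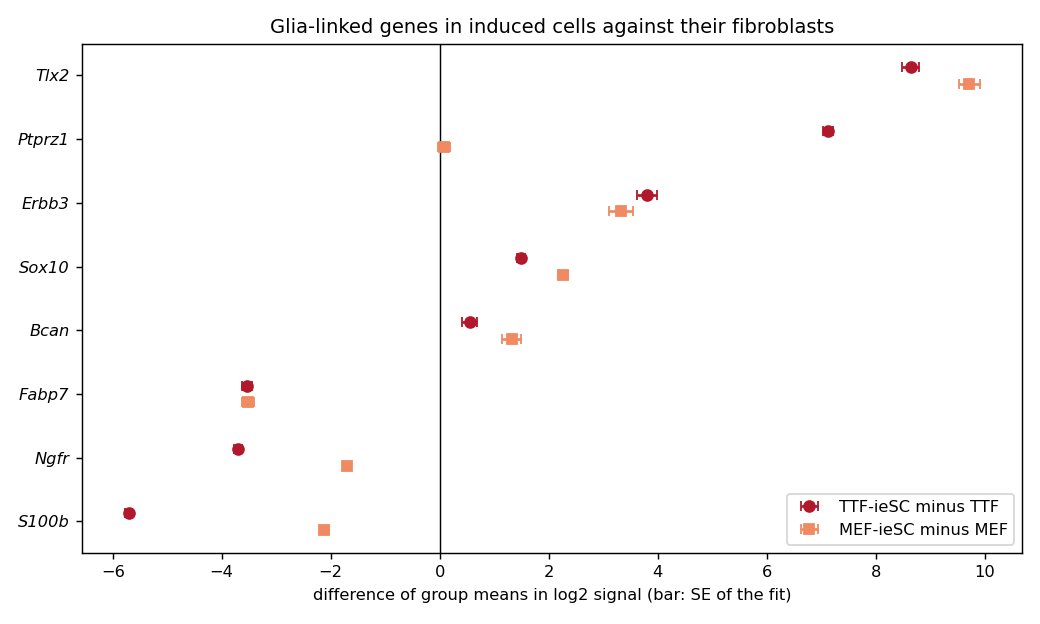
Log2 difference with its standard error for TTF-ieSC minus TTF and for MEF-ieSC minus MEF, for the brightest feature of each of the 8 genes. Tlx2 stands highest in both, and the 2 inductions lie furthest apart for Ptprz1.

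Read together, the 8 genes gave these counts, which rest on values that entered their choice and from which nothing is read. In TTF-ieSC against TTF, 5 were called higher and 3 lower at an adjusted p under 0.05, where 74.7% of the 16658 genes tested were called (39.5% higher and 35.2% lower). Their median difference was 1.02, beside 0.06 over all genes. In MEF-ieSC against MEF, 4 were higher, 3 lower and 1 (Ptprz1) was not called, where 67.9% of all genes were called (34.3% higher and 33.6% lower). Their median was 0.70 beside 0.01. The higher genes of both counts include Bcan, which with the mean of its 2 features was not called and gave -0.27 and -0.19. With the mean of its features, Ptprz1 was called higher in MEF-ieSC against MEF (0.36). Between the inductions, 1 was called with a positive and 5 with a negative difference, where 54.1% of all genes were called (28.9% positive and 25.2% negative). Ptprz1 had the positive one. S100b differed between the inductions by -3.59 ± 0.10 and Ngfr by -2.0 ± 0.11, which means a larger fall in TTF-ieSC. For Erbb3 (0.47 ± 0.28) and Fabp7 (-0.03 ± 0.14) the 2 inductions were not separated.

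Between the starting fibroblasts Ptprz1, S100b and Ngfr differed widely, and the remaining genes by 1.19 or less on their brightest features. Between the induced cells all 8 differed by 1.22 or less on those features. Fabp7 and Tlx2 lay slightly further apart between the induced cells (-1.22 and -0.56) than between the fibroblasts (-1.19 and 0.51). In TTF against MEF, 5 were called higher and 3 lower, where 66.6% of all genes were called (31.1% higher and 35.5% lower). Among the lower ones was Erbb3 (-0.47), whose call was lost in most repeats with another setting and which was -0.15 without MEF replicate 2. Among the higher ones was Tlx2, which was 0.30 and not called without MEF replicate 1. Values ran from -6.77 for Ptprz1 to 4.09 ± 0.07 for S100b and 1.98 ± 0.07 for Ngfr. In TTF-ieSC against MEF-ieSC, 1 was called higher (S100b, 0.50 ± 0.08) and 1 lower (Fabp7, -1.22 ± 0.11), where 14.3% of all genes were called (7.53% higher and 6.76% lower). Another 6 were not called. On the brightest features, Sox10, Erbb3, Ngfr and Bcan differed by 0.06 or less. Over all features Ngfr ran from -0.09 to 0.58, and the other Bcan feature gave 1.39 ± 0.20. With the mean of a gene's features, Bcan (0.69) and Ngfr (0.22) were called as well. Tlx2 (-0.56) was called with another variance model. The calls for S100b and Fabp7 were lost when only these 2 groups were fitted, where 6 genes of the whole array were called. The comparisons share the same arrays, so none of them is a separate test of another.

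TTF-ieSC was also set beside native cells for the 8 genes, and MEF-ieSC was not compared with them. In TTF-ieSC against immature Sertoli cells, 3 of the 8 were called higher and 4 lower, where 76.8% of all genes were called (37.8% higher and 39% lower). Ptprz1 was the one not called (-0.03 ± 0.09), with positive differences for Tlx2 (7.79 ± 0.15) and Erbb3 (2.41 ± 0.18), and negative differences for Fabp7 (-3.79 ± 0.09) and Ngfr (-1.84 ± 0.07). In TTF-ieSC against gonad, 3 were higher and 5 lower, where 79.7% of all genes were called (38.2% higher and 41.5% lower). Ngfr gave -7.06 ± 0.07. Sox10 was the gene nearest to the gonad's level.

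The native stages set the genes apart from each other. In immature Sertoli cells against gonad, 2 were called higher (Ptprz1, 3.92 ± 0.09, and Bcan, 2.07 ± 0.14) and 5 lower, where 70.5% of all genes were called (32.6% higher and 37.9% lower). Ngfr gave -5.22 ± 0.07 and Sox10 -2.65 ± 0.08, and the call of Erbb3 was lost without gonad replicate 1 (-0.59). Whole organ against isolated cells, age and culture differ together here and cannot be told apart. In mature against immature Sertoli cells, 3 were higher and 4 lower, where 68.5% of all genes were called (28.9% higher and 39.6% lower), with Bcan at -5.99 ± 0.14, Ptprz1 at -4.33 ± 0.09 and S100b at 2.44 ± 0.07. The counts include Ngfr (0.18 ± 0.07), whose call was lost with the mean of its features (0.08), and Erbb3 (-0.61), whose call was lost without replicate 2 of mature (-0.54) or immature (-0.59) Sertoli cells. Age and days in culture differ together in this comparison too. In immature Sertoli cells against MEF, 4 were higher and 1 lower, where 71.8% of all genes were called (36.2% higher and 35.6% lower). Sox10 (-0.01 ± 0.08) and S100b (0.02 ± 0.07) did not separate the 2 groups.

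Markers of glia and of their sister lineages were read beside the 8 genes, from lists that leave the 8 out. Of 21 tested Schwann cell and crest genes, 12 rose and 6 fell in TTF-ieSC against TTF, and 12 rose and 5 fell in MEF-ieSC against MEF. Their medians were 0.69 and 1.2, beside 0.06 and 0.01 over all genes tested. Of all genes, 39.5% and 34.3% rose and 35.2% and 33.6% fell in these comparisons. Pou3f1, a factor of promyelinating Schwann cells, rose by 4.27 ± 0.11 and 3.19 ± 0.14, and Cmtm5, a membrane protein of myelinating glia, by 3.53 ± 0.06 and 3.32 ± 0.07. Foxd3, which marks crest cells and their glia, had 6.36 and 4.8 in TTF-ieSC and 5.02 in MEF-ieSC, all under the array median. It fell in TTF-ieSC (-2.24 ± 0.41, limma, adjusted p = 0.00105) and did not pass the test in MEF-ieSC (-1.27 ± 0.50, adjusted p = 0.0520). Gap43, of axons and immature Schwann cells, fell (-2.70 ± 0.05 and -6.26 ± 0.06).

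The summed level of the Schwann and crest list did not separate induced cells widely from the rest. Its mean over 23 genes on the array was 9.43 to 9.44 in TTF-ieSC and 9.33 in MEF-ieSC, 8.81 to 8.82 in gonad, 9.10 to 9.17 in immature Sertoli cells, 8.5 to 8.58 in mature Sertoli cells, 8.89 to 8.95 in TTF, and 8.78 to 8.84 in MEF. On every array of TTF-ieSC 16 of the 23 lay above the median, against 17 in TTF, and 14 in MEF-ieSC against 13 in MEF. The part of such cells in the levels of the 8 genes was not tested.

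Of the central glia, the astrocyte list was split and the oligodendrocyte list had more genes higher than lower. Of 17 tested astrocyte and radial glia genes, 8 rose and 7 fell in TTF-ieSC against TTF, and 8 rose and 7 fell in MEF-ieSC against MEF, with medians of -0.03 and -0.1. Gfap, the intermediate filament of astrocytes and non-myelinating Schwann cells, had 8.61 and 8.72 in TTF-ieSC against 7.30 and 7.09 in TTF, and 8.49 in MEF-ieSC against 6.86 and 6.64 in MEF. It rose by 1.47 ± 0.11 (limma, adjusted p = 2.10e-06) and 1.74 ± 0.13 (adjusted p = 3.96e-06). Nes (nestin), a filament of neural and many other progenitors, rose by 5.15 ± 0.08 and 1.94 ± 0.10, whereas Gja1 (connexin 43), which Sertoli cells also use, fell (-6.16 ± 0.08 and -5.49 ± 0.10). Of 11 tested oligodendrocyte genes, 7 rose and 1 fell in TTF-ieSC against TTF, and 7 rose and 2 fell in MEF-ieSC against MEF. Their medians were 2.12 and 1.42, beside 0.06 and 0.01 over all genes tested, of which 39.5% and 34.3% rose in these comparisons. Nkx6-2 rose by 3.44 ± 0.28 and 3.25 ± 0.35 and Cnp, a myelin enzyme found in other cells too, by 2.49 ± 0.06 and 2.90 ± 0.07. Cspg4, of oligodendrocyte precursors and pericytes, fell (-3.02 ± 0.06 and -3.94 ± 0.08). Olig1 and Olig2, also on the list, lay under the array median on every induced array (4.67 to 5.74 and 6.21 to 6.3). The list shares Mbp, Cnp and Mag with the Schwann and crest list and Cldn11 with the Sertoli list, so these counts are not separate readings.

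**Figure D5:**
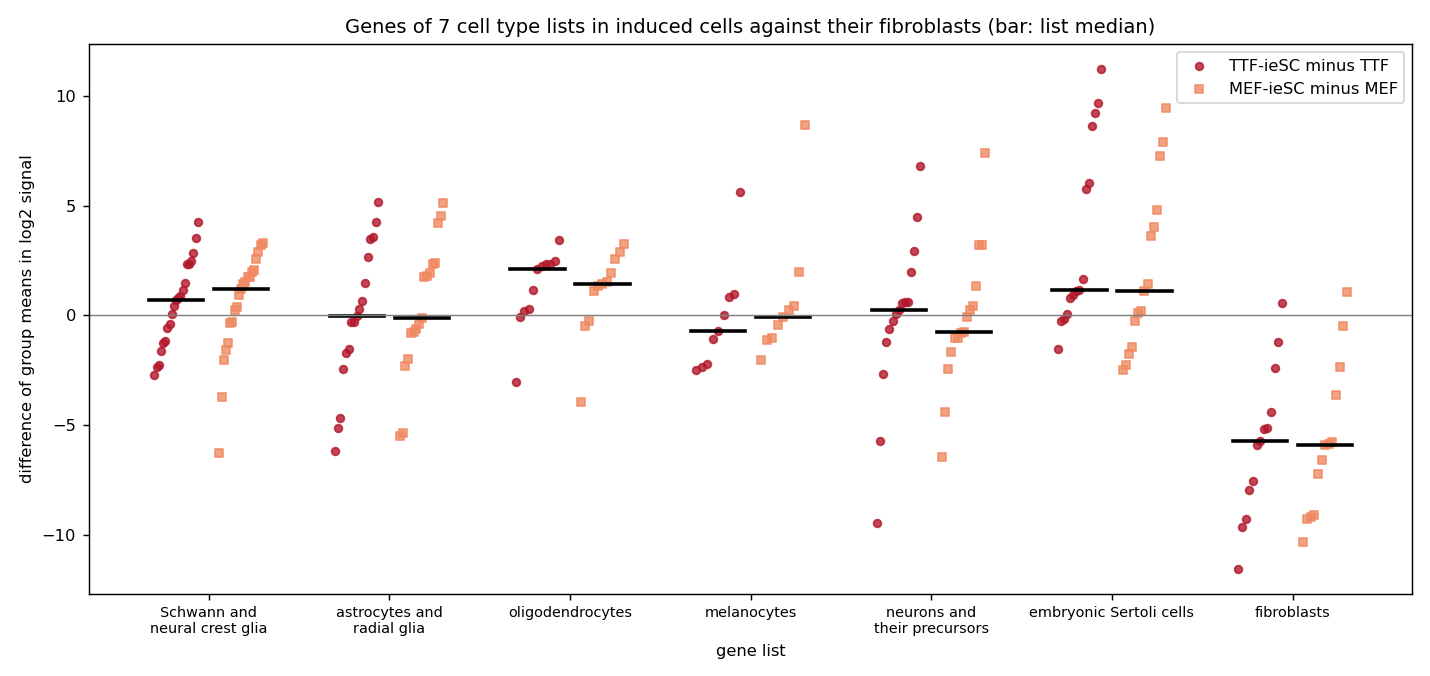
Log2 difference of each tested gene of 7 cell type lists for TTF-ieSC minus TTF and for MEF-ieSC minus MEF; each point is 1 gene and a bar is the list's median. The glial lists hold genes on both sides of 0, and 12 of 13 fibroblast genes were lower in both.

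The genes whose values ran most like each of the 8 over the 13 arrays were taken from 6886 tested genes with a range of at least 2. Genes with clone or predicted names had been left out. The likenesses are descriptions over arrays that share groups, and likeness of this kind says nothing on shared control. For Tlx2 they were Glod5 (Pearson r = 0.995), Clic3 (0.991) and P2rx2 (0.991), the last an ion channel gated by ATP at 17.70 in TTF-ieSC and 17.67 in MEF-ieSC, against 7.88 in TTF and 8.02 in MEF. For Erbb3 they were Rhpn1 (0.987), Ptpn6 (0.983) and Rnf208 (0.983), and for Sox10 they were Rab6b (0.968), Six5 (0.965) and Nos3 (0.964). Ptprz1 ran most like Slc38a1 (0.972), Adcy1 (0.972) and Septin6 (0.964), and Bcan most like Mal (0.970), Ears2 (0.963) and Slc27a2 (0.963). Mal, a membrane protein of myelin and of epithelia, had 12.28 and 12.44 in immature Sertoli cells and 12.02 and 12.06 in gonad, like Bcan. Ngfr ran most like Ano2 (0.979), Gimap6 (0.978) and Mlana (0.978), S100b like Lrmda (0.986), Tgfbr3 (0.985) and Vsir (0.984), and Fabp7 like Plagl1 (0.983), Wnt5a (0.980) and Kcnip3 (0.976).

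Among themselves the 8 genes did not run as 1 set. Tlx2 and Erbb3 ran together (r = 0.93 over 13 arrays), as did Erbb3 and Sox10 less closely (0.73). S100b ran against Ptprz1 (-0.92), and Fabp7 against Tlx2 (-0.91). Sox10 and Ptprz1 were unrelated in their order over the arrays (0.06).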

How the data were processed

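RNA of 13 mouse samples in 7 groups was measured on 1-colour Agilent arrays. The authors deposited log2 signals whose distribution is the same on all 13 arrays. The tool limma is named, without a role, per the submitters' processing notes. How features were extracted and corrected for background, and whether a floor was set, is not given in the sources used here. The number of arrays limits the precision.

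The platform annotation gave 1 symbol to 31465 of the 62976 features, several to 0 and none to 31511, and symbols were updated through RefSeq (GRCm38.p6). A gene took its brightest feature, and the 16658 genes that exceeded the array's median on 2 or more arrays were tested. One model of 7 group means was fitted with limma 3.58.1 in R 4.3.3 (6 residual and 2.18 prior degrees of freedom), two-sided, with Benjamini-Hochberg adjustment over all genes tested in each of 10 comparisons and calls at an adjusted p under 0.05. The spread of MEF-ieSC, with 1 array, was taken from the remaining groups. The fit was tested on simulated data.

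The 8 genes and 14 lists (167 of 195 genes tested) were chosen with earlier results of these data known. From each list the 3 genes with the largest called difference in each induction were picked by rule, beside a set of partner genes. Not all of these picks are described here, and no rule is given for which were left out. The 3 genes most like each of the 8, with clone and predicted names left out, are all given. Some genes outside the rule, such as Acan, Vcan, Tyr, Gata4, Dmrt1, Inha, Olig1 and Olig2, are named as well. Alternatives were the normalization, the filter, the mean of a gene's features, only the groups compared, the variance model, each array left out and the array surface.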

Additional observations from a re-analysis of the deposited data

Results flagged for a closer look

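The contrast of TTF-ieSC minus TTF less MEF-ieSC minus MEF lay past an adjusted p under 0.05 in the limma fit for 6 of the 8 genes, as for 54.1% of all genes tested. The values are 7.03 ± 0.15 for Ptprz1, -3.59 ± 0.10 for S100b, -2.0 ± 0.11 for Ngfr, -1.07 ± 0.24 for Tlx2, -0.77 ± 0.12 for Sox10 and -0.76 ± 0.22 for Bcan. The genes were chosen with these values known, so they are a description and no test, MEF-ieSC had 1 array, and Tlx2 passed the filter only through the induced arrays. For Ptprz1, S100b and Ngfr the fibroblasts differed by -6.77, 4.09 and 1.98 (TTF minus MEF), and the induced cells by 0.26, 0.50 and -0.02 (TTF-ieSC minus MEF-ieSC). The other Bcan feature gave 0.60 ± 0.26 for the same contrast, and the call of Bcan was lost with the mean of its features (-0.08), with only the groups compared (-0.76) and without TTF-ieSC replicate 1 (-0.68). No group held enough arrays to look for an outlying one.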

How the results depend on the processing

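The number of genes called stayed within 1.5 times in 189 of 190 repeats over the 10 comparisons. In TTF-ieSC against MEF-ieSC, fitting only those groups left 6 genes called in place of 2381; that fit holds only 3 arrays. With 1 array left out, the calls ranged from 11541 to 12670 in TTF-ieSC against TTF, 10801 to 11560 in MEF-ieSC against MEF and 1668 to 2646 in TTF-ieSC against MEF-ieSC. Of 1500 repeated differences of the 8 genes, 1414 moved by less than the spread of replicates and 84 by more. Another 2, called in the main fit, turned sign. With the mean of a gene's features, Bcan gave -0.27 in TTF-ieSC against TTF and -0.19 in MEF-ieSC against MEF. Turns of sign were not counted for differences the main fit did not call. Among those, in TTF-ieSC against MEF-ieSC, the same setting took Bcan from -0.01 to 0.69 and Ngfr from -0.02 to 0.22. Of 1064 list counts, 1032 stayed within 1.5 times. Erbb3 in TTF against MEF (-0.47) lost its call in most repeats and was -0.15 without MEF replicate 2, and its difference between the inductions was called at 0.79 without MEF replicate 1. Ngfr (0.18) and Erbb3 (-0.61) in mature against immature Sertoli cells also lost their calls in some repeats. Tlx2 in TTF against MEF was 0.30, and not called, without MEF replicate 1. A repeat without 176 features was chosen after seeing the data. Around these features the local median of MEF-ieSC minus TTF-ieSC lay more than 0.5 from 0. The width of the array grid was inferred from the order of the features. Which array was uneven was not tested. No paired analysis was possible because the labels give no replicate numbers. Dim values limit Tlx2, Erbb3, Fabp7, S100b and Ptprz1 wherever they lie under the array median.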

Other observations

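Genes of the lineages that share a crest origin with glia had a few members with wide differences. Dct, a pigment enzyme of melanocytes, had 12.68 and 12.68 in TTF-ieSC against 7.03 and 7.06 in TTF, and 13.81 in MEF-ieSC against 5.21 and 5.03 in MEF. It rose by 5.64 ± 0.08 (limma, adjusted p = 6.87e-11) and 8.69 ± 0.10 (adjusted p = 9.98e-11). Mitf, the regulator of the melanocyte program, fell in TTF-ieSC (-2.51 ± 0.06) and rose by 0.44 ± 0.08 in MEF-ieSC. Tyr, the key enzyme of pigment synthesis, named after its values were seen, lay between 7.54 and 7.74 on the 3 induced arrays, near the array median. Of 9 tested melanocyte genes, 3 rose and 5 fell in TTF-ieSC against TTF, and 4 rose and 4 fell in MEF-ieSC against MEF.

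Prph (peripherin), an intermediate filament of peripheral neurons, had 15.52 and 15.59 in TTF-ieSC against 8.72 and 8.76 in TTF, and 15.81 in MEF-ieSC against 8.46 and 8.37 in MEF. It rose by 6.82 ± 0.09 (limma, adjusted p = 6.87e-11) and 7.39 ± 0.12 (adjusted p = 3.47e-10). Stmn2, a tubulin-binding protein of growing neurons, fell (-9.46 ± 0.17 and -6.46 ± 0.21), as did Ret, the GDNF receptor (-5.73 ± 0.26 and -2.44 ± 0.32). Of 15 tested neuronal genes, 6 rose and 5 fell in TTF-ieSC against TTF, and 5 rose and 7 fell in MEF-ieSC against MEF. Dhh, which Sertoli and Schwann cells both secrete, rose by 6.03 ± 0.06 in TTF-ieSC and by 7.25 ± 0.08 in MEF-ieSC.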
